A study of Mus musculus with 9 samples.

Results

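The genes described here encode complexes II to V of the mitochondrial respiratory chain, with cytochrome c, in mouse brain. Members were the rows of the deposited table whose RefSeq identifier maps to a symbol of the form Sdha to Sdhd, Uqcr, Cyc1, Cycs, Cox4 to Cox8 or Atp5. This rule found 49 of the 23798 genes in the table, on 65 of its 33299 transcript rows. There were 4 members in complex II, 9 in complex III, 18 in complex IV and 17 in complex V, and the remaining member was cytochrome c. Each of these genes lies in the nucleus, and the subunits encoded by mitochondrial DNA were not part of the rule.

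Complex II, succinate dehydrogenase, belongs to both the tricarboxylic acid cycle and the respiratory chain, and it passes electrons to ubiquinone. Complex III passes them on to cytochrome c, and complex IV, cytochrome c oxidase, hands them to oxygen. Complexes III and IV pump protons across the inner mitochondrial membrane, and complex V, ATP synthase, lets the protons flow back to make ATP. Neurons depend heavily on this supply of ATP, and several complex IV subunits have separate isoforms in heart, skeletal muscle, lung or testis.

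RNA came from brain samples of 3 groups with 3 libraries each, namely TG mice given NM-101, TG mice given placebo, and WT mice given placebo. The study's title concerns oligodendrocytes, the myelin-forming cells, and alpha-synuclein that neurons release, and NM-101 is known here only by that code. The labels name neither the transgene and its promoter, nor the age and sex of the animals, nor the dose and length of treatment. Nor do the labels say whether each library came from a separate animal, so the p-values measure the spread between libraries, which may be technical. RNA was purified with a kit for formalin-fixed, paraffin-embedded tissue and libraries were made with QuantSeq, a kit that reads transcripts near the 3′ end.

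The WT columns held counts, with 10612290, 14041951 and 11774367 in total. The 6 TG columns held log2(FPKM + 1), a reading taken from the values, where FPKM is fragments scaled by transcript length and by library depth. Their low values lay in steps of whole reads divided by the transcript length less a number of bases particular to each library. That length offset was 260, 250 and 280 bases in TG NM-101 replicates 1, 2 and 3, against 190, 230 and 230 bases in TG placebo replicates 1, 2 and 3. Every TG NM-101 offset was therefore larger than every TG placebo offset. With its own offset, between 85.8% and 87.6% of the low values of a library fell within 0.2 of a whole number of reads, against 65.0% to 72.8% with no offset. The implied depth was 9980000 to 13760000 reads in TG NM-101 libraries and 10780000 to 13860000 reads in TG placebo libraries.

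A larger offset raises short transcripts more than long ones. The offsets by themselves put TG NM-101 above TG placebo by 0.54 on the log2 scale for a transcript of 366 bases, by 0.22 at 550 bases, by 0.09 at 1000 bases and by 0.02 at 3000 bases. Many respiratory genes are short, and 16 of the 47 members tested had transcripts under 600 bases. Each difference between TG NM-101 and TG placebo is therefore given both on the scale as deposited and on a full-length scale, on which the offset was undone. These offsets came from transcripts of 600 to 6000 bases. In transcripts of 400 to 600 bases the steps gave lower offsets, of 240, 230 and 260 bases in TG NM-101 replicates 1, 2 and 3, against 190, 210 and 210 bases in TG placebo replicates 1, 2 and 3, from 47 to 68 values per library. With those the effect at 366 bases is 0.41, so the full-length differences of short members are uncertain and are also given with the lower offsets where that moves them most. No steps were checked below 400 bases. Atp5md, Atp5mpl, Atp5k, Cox8b and Cox7a1 are shorter than that, so their full-length values extend the offset past the lengths at which it was checked.

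The libraries were labelled as oligodendrocytes but held abundant neuronal RNA. On the deposited scale the synaptic gene Snap25 stood at 9.99, 10.15 and 10.09 in TG NM-101 libraries, against 10.27, 9.96 and 9.96 in TG placebo libraries. The myelin gene Mbp stood at 11.25, 10.36 and 10.85 in TG NM-101 libraries, against 11.62, 9.98 and 9.93 in TG placebo libraries. TG placebo replicate 1 stood apart from the other TG placebo libraries. Its choroid plexus markers summed to 4606 FPKM, against 8.74 and 14.6 FPKM in replicates 2 and 3, and its nuclear-retained RNAs to 241 FPKM, against 1190 and 1462 FPKM. In TG NM-101 libraries the choroid plexus markers summed to 42.8, 1044 and 68.7 FPKM. Among the WT libraries, the same markers took 39983 counts in replicate 1 and 241 and 501 in the others. Less RNA per cell and fewer cells of a type cannot be told apart in such bulk samples.

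The promoters of these genes are known for sites of the transcription factors NRF1 and GABP, which drive many nuclear genes of mitochondrial proteins. RefSeq promoters of the build GRCm38.p6, from 250 bases before to 50 after a gene's start, were at hand for 37 of the 49 members and for 27025 genes in all. Motifs were searched on both strands. The genes compared were neither restricted to those expressed in brain nor matched for the base composition of their promoters. The full NRF1 palindrome, GCGCA and GCGC with any base between them, was present in 10 members (27.0%), against 5.19% of all genes. The shorter NRF1 core TGCGCA, which can overlap the palindrome, was present in 8 members (21.6%), against 8.79% of all genes. The core CCGGAA of the ETS family, to which GABP belongs, was present in 16 members (43.2%), against 16.7% of all genes. The YY1 motif AAGATGGC was found in 3 members (8.11%) against 3.19% of all genes, and the cyclic AMP response element TGACGTCA in 2 members (5.41%) against 2.03%. The 120 bases just upstream of the start are shown for the Sdhd, Cox6a1, Uqcr11 and Uqcrfs1 genes. These are examples from complexes II, IV, III and III that carry such motifs there, and other members, such as Sdha, carry them too. Capitals mark letters of the searched motifs, and TTCCGG is CCGGAA on the other strand.
Sdhd, chr9:50603850-50603969, minus strand: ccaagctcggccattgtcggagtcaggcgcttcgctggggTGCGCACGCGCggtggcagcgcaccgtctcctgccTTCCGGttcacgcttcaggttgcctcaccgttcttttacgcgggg
Cox6a1, chr5:115348959-115349078, minus strand: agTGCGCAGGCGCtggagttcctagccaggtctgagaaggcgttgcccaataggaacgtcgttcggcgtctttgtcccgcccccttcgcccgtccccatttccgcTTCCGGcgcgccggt
Uqcr11, chr10:80406822-80406941, minus strand: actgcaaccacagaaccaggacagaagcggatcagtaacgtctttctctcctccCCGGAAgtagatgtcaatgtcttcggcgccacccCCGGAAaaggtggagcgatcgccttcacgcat
Uqcrfs1, chr13:30545317-30545436, minus strand: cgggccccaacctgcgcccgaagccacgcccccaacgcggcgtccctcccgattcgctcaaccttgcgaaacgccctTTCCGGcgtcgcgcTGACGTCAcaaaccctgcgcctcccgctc
A match of letters is a description of the sequence. The Sdhd and Cox6a1 windows hold both an NRF1 palindrome and an ETS core, the Uqcr11 window holds the ETS core in 2 places, and the Uqcrfs1 window holds it beside a cyclic AMP response element.

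In WT brain the 49 members together took 1.28% ± 0.0506 of all counts (mean ± SD, n = 3). Complex V took 0.591% ± 0.0120 of counts and complex IV took 0.399% ± 0.0291, while complex III took 0.171% ± 0.00959 and complex II took 0.0883% ± 0.00360. Cytochrome c alone took 0.0276% ± 0.00161. These shares add up reads and were not divided by length. For comparison, 37 genes listed under complex I, NADH dehydrogenase, took 0.483% ± 0.0187. That list includes Ndufa4, which is now assigned to complex IV. Ranked by CPM, the counts scaled to a common library total, 10 members stood among the first 500 of the 17929 genes counted in at least 1 WT library, and 25 stood among the first 1000. The catalytic subunit Atp5b had 1395, 1358 and 1284 CPM in the 3 WT libraries, and Atp5a1, its partner in the catalytic head, had 1044, 1019 and 971 CPM. Cox4i1, a core-binding subunit of complex IV, had 780, 876 and 876 CPM. The other end of the range belonged to isoforms known from other tissues, and 6 members lay under 5 CPM on average. Over the 42 members at 50 CPM or more, the coefficient of variation between WT libraries had a median of 5.82%, a lowest value of 0.766% (Cox5a) and a highest value of 19.4% (Atp5j2).

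**Figure D1:**
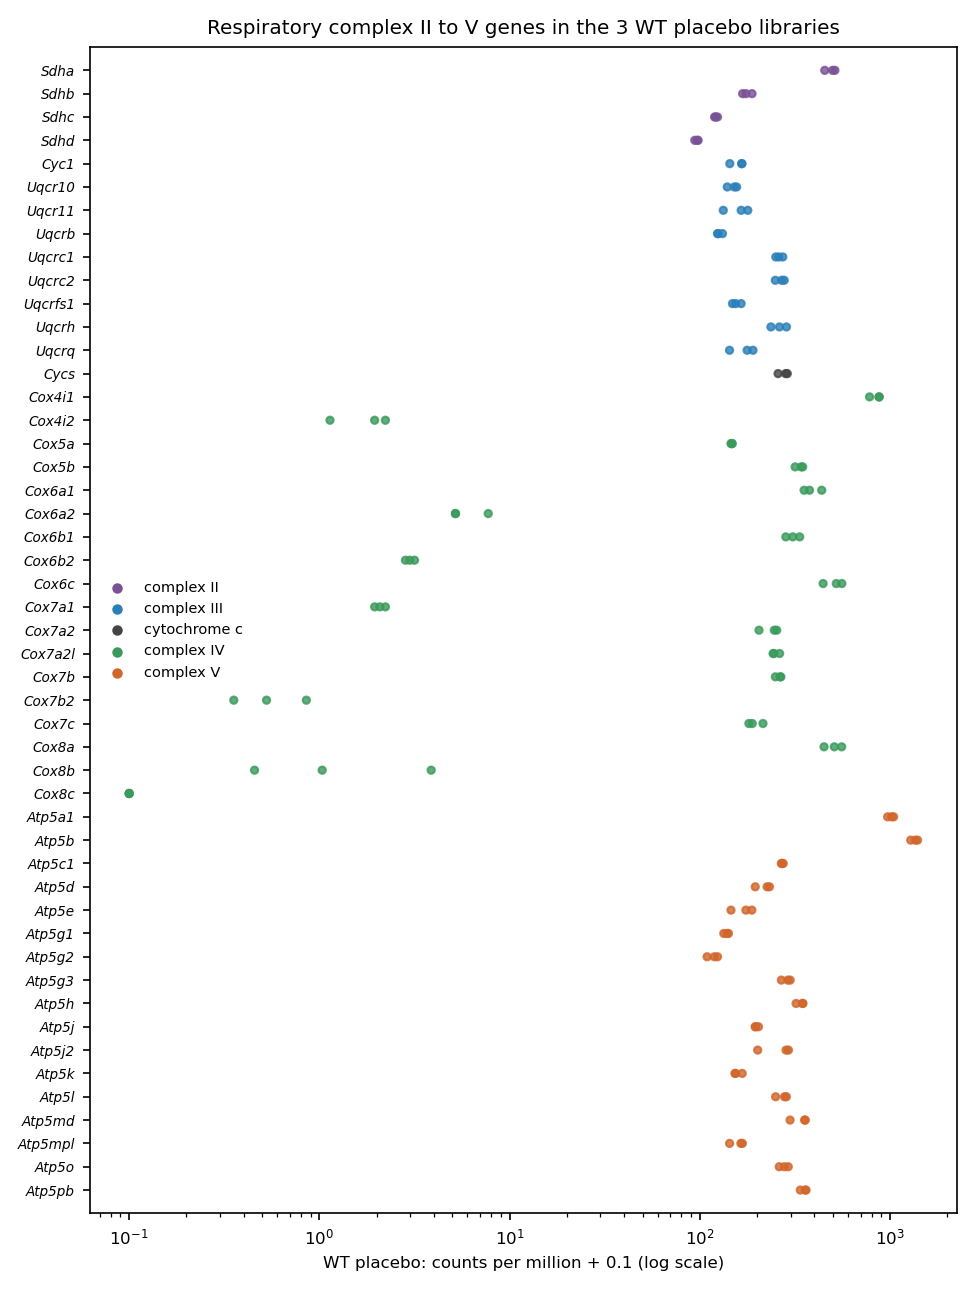
CPM plus 0.1 of each of the 49 members in the 3 WT placebo libraries (log axis, 1 point per library, coloured by complex). Counts were not divided by transcript length, and the libraries read transcripts near the 3′ end. Atp5b and Atp5a1 lie furthest to the right, and the tissue isoforms of complex IV lie below 8 CPM.

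As levels per length, the order of the highest members depended on the scale and on the group. Reads taken near the 3′ end need not grow in number with transcript length. Dividing by length can therefore place short transcripts too high, and this order differs from that of the WT CPM. On the full-length scale Cox4i1 was the highest in both groups, at 10.02 ± 0.14 in TG NM-101 libraries and 9.74 ± 0.11 in TG placebo libraries (mean log2 ± SD, n = 3 each). Cox6c stood at 9.56 ± 0.13 in TG NM-101 libraries and 9.28 ± 0.16 in TG placebo libraries. Cox8a stood at 9.45 ± 0.13 in TG NM-101 libraries and 9.42 ± 0.12 in TG placebo libraries, so that it was above Cox6c in the TG placebo mean and below it in the TG NM-101 mean. Cox6c and Cox8a lay within their spreads of each other in both groups. Cox6a1 stood at 9.19 ± 0.15 in TG NM-101 libraries and 9.21 ± 0.09 in TG placebo libraries, and Atp5b at 9.22 ± 0.09 in TG NM-101 libraries and 9.15 ± 0.17 in TG placebo libraries. As deposited, Atp5md, a small subunit of the membrane part of complex V, was the highest member, at 11.27 ± 0.09 in TG NM-101 libraries and 10.48 ± 0.21 in TG placebo libraries. Its full-length level, 9.39 ± 0.24 in TG NM-101 libraries and 9.15 ± 0.19 in TG placebo libraries, rests on an offset extended below the lengths checked.

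On the deposited scale, most members stood higher in TG NM-101 than in TG placebo libraries, by small amounts. A linear model was fitted with limma on the 12699 genes whose log2 values averaged 1 or more, and 47 members were among them. Cox7b2 and Cox8c, both testis isoforms, did not reach that level. Of the 47, 43 had a positive difference and 4 a negative one, with a median of 0.28. The median of all genes tested was 0.03, and 55.5% of them lay above 0. With Benjamini-Hochberg adjustment across every gene tested, 1 member was called higher and 0 lower at 0.05, against 0.102% of all genes called higher and 0.0315% lower. Before adjustment, 23 members were higher and 0 lower at p under 0.05, against 10.7% of all genes higher and 4.17% lower. In 24 members all 3 TG NM-101 libraries lay above all 3 TG placebo libraries and in 0 they lay below, against 13.6% and 5.98% of all genes. Among transcripts under 600 bases they lay above in 68.8% of members and 37.8% of all genes. From 600 to 1000 bases these shares were 50% and 26.1%, and at 1000 bases or more 35.3% and 12.4%.

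On the full-length scale the difference was smaller and no member passed. Of 47 members, 35 had a positive difference and 12 a negative one, with a median of 0.09, while 50% of the 12244 genes tested lay above 0. By limma with Benjamini-Hochberg adjustment, 0 members were called, against 0% of all genes called higher and 0.0163% lower. Before adjustment, 8 of the 47 members were higher and 0 lower at p under 0.05, against 7.41% of all genes higher and 5.73% lower. Under 600 bases 18.8% of members were higher at that p, against 20.1% of all genes of that length. From 600 to 1000 bases these shares were 14.3% and 12.7%, and at 1000 bases or more 17.6% and 6.95%. The 17.6% stands for 3 of 17 members, among them Uqcrq. The annotated length of Uqcrq, 1521 bases, is uncertain, since its levels imply about 589 if they are equal in WT and TG mice. The TG NM-101 libraries lay above all TG placebo libraries in 7 members and below them in 0, against 9.91% and 7.64% of all genes. Under 600 bases they lay above in 12.5% of members and 18.3% of all genes. In the 2 longer classes the shares were 14.3% and 12.7%, then 17.6% and 9.64%, where 17.6% was again 3 of 17 members, Uqcrq among them. Positive differences made up 68.8%, 64.3% and 88.2% of members in these classes, against 63.4%, 61.3% and 49.2% of all genes. The smallest adjusted p of a member was 0.227, for Atp5j2. With the lower offsets for transcripts under 600 bases, 37 of 47 members had a positive difference, with a median of 0.12. By limma 0 were called higher, against 0% of all genes, and 9 (19.1%) were higher at p under 0.05 before adjustment, against 7.49%. In 10 members (21.3%) the TG NM-101 libraries lay above all TG placebo libraries, against 10% of all genes. Under 600 bases, where the lower offsets act, they lay above in 31.25% of members and 25.5% of all genes. The 8 members at p under 0.05 with 1 offset per library were Uqcrq, Cycs, Cox4i1, Cox6c, Cox7a2l, Cox7c, Atp5j2 and Atp5l.

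**Figure D2:**
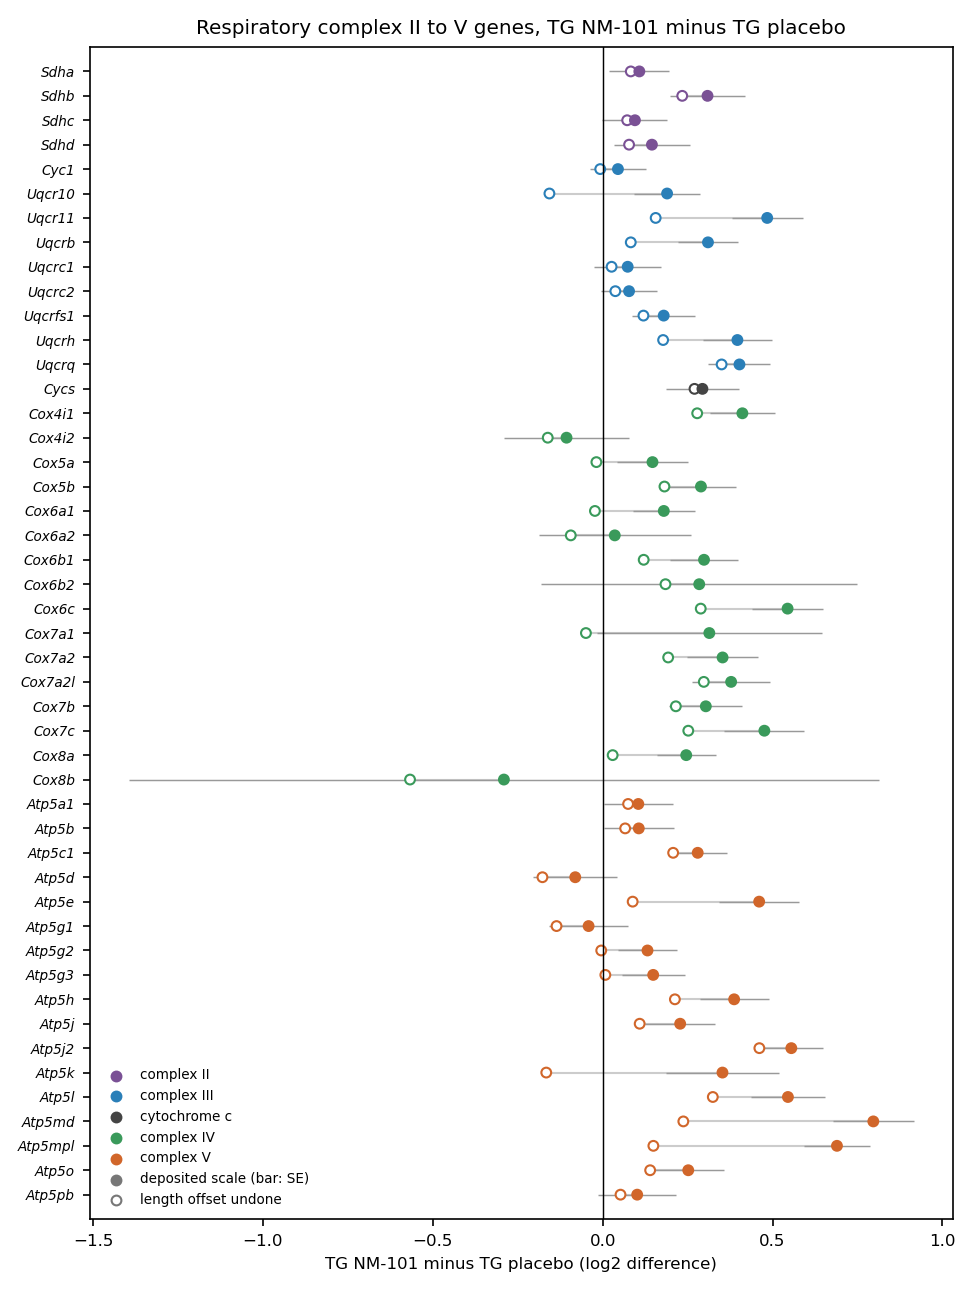
Difference of TG NM-101 minus TG placebo (log2) for the 47 members tested, with filled points and SE bars on the deposited scale and open points with the length offset undone. The filled points have a median of 0.28 and the open points a median of 0.09, and the shift between them is largest for short transcripts such as those of Atp5md and Atp5mpl.

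The difference was larger in short transcripts on the deposited scale, and on the full-length scale the medians of the length classes lay closer together. Members under 600 bases had a median difference of 0.37 as deposited and 0.12 with the offset undone. All genes of that length had medians of 0.33 and 0.12. For members of 600 to 1000 bases the medians were 0.24 and 0.11, against 0.17 and 0.07 for all genes of that length. For members of 1000 bases or more they were 0.11 and 0.08, against 0.02 and -0.005 for all genes. Over the 47 members the difference had a Pearson r of -0.41 and a Spearman rho of -0.50 with log2 length as deposited, and 0.14 and 0.05 with the offset undone. These points share the same 6 libraries, so the correlation is a description.

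**Figure D3:**
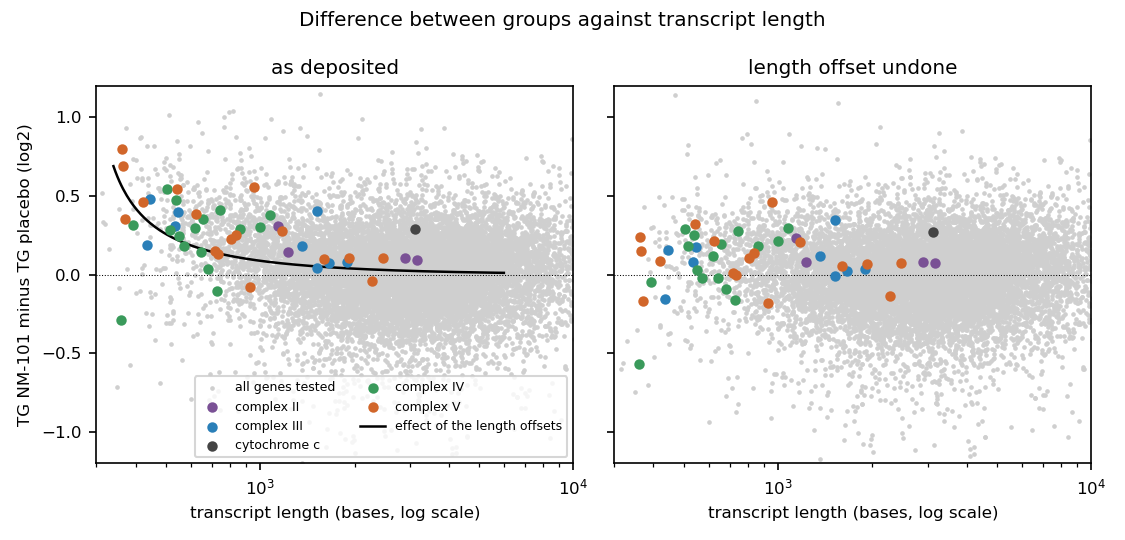
Difference of TG NM-101 minus TG placebo (log2) against transcript length (bases, log axis) for all genes tested (grey) and the members (coloured by complex), as deposited on the left and with the length offset undone on the right. The black line gives the difference that the length offsets alone produce, which is 0.54 at 366 bases and 0.04 at 2000 bases, and short members lie on both sides of it in the left panel, with Atp5l above it and Uqcr10 below it.

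TG NM-101 replicate 2 and TG placebo replicate 2 held the extreme values of many members. On the full-length scale TG NM-101 replicate 2 was the highest of the 6 libraries in 29 of 47 members, and TG placebo replicate 2 was the lowest in 25. TG placebo replicate 1, the library with high choroid plexus RNA, was the highest in 12. Relative to the TG placebo mean, the median member lay 0.02, 0.20 and 0.06 higher in TG NM-101 replicates 1, 2 and 3. In TG placebo replicates 1, 2 and 3 it lay at 0.13, -0.10 and -0.03. The groups thus overlapped in this median, with TG placebo replicate 1 above TG NM-101 replicates 1 and 3. Without TG placebo replicate 1, limma called 17 of 47 members higher as deposited, against 9.6% of all genes. On the full-length scale it called 4 of the 46 members tested, a share near the 7.89% of all genes. The 4 were Atp5j2, Atp5l, Cox7a2l and Cycs. As deposited, 0 members were called without any 1 of the TG NM-101 libraries or without TG placebo replicate 2. Without TG placebo replicate 3 there was 1 call. At full length 0 were called with all 6 libraries, and 0 on leaving out each library other than TG placebo replicate 1. Without TG NM-101 replicate 2 the full-length median was 0.03.

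Complex II had 4 of 4 members with a positive difference and no call by limma. The iron-sulfur subunit Sdhb stood at 7.30, 7.69 and 7.48 in TG NM-101 libraries, against 7.24, 7.16 and 7.14 in TG placebo libraries, all on the deposited log2 scale. The groups did not overlap, and the difference was 0.31 (SE 0.109, limma adjusted p = 0.257). On the full-length scale it was 0.23 (SE 0.119, limma adjusted p = 0.420) and TG NM-101 replicate 1 fell within the placebo range. The flavoprotein subunit Sdha, which oxidizes succinate, stood at 7.26, 7.37 and 7.33 in TG NM-101 libraries, against 7.30, 7.23 and 7.11 in TG placebo libraries. Its groups overlapped, and its difference was 0.11 as deposited and 0.08 at full length. The membrane anchors Sdhc and Sdhd had differences of 0.10 and 0.15 as deposited, and their groups overlapped, with TG placebo replicate 1 the highest of the 6 libraries in both.

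The core of complex III moved little, and its small subunits had the larger deposited differences. Cyc1, the cytochrome c1 subunit that carries the haem facing cytochrome c, stood at 7.08, 7.14 and 7.16 in TG NM-101 libraries, against 7.14, 7.05 and 7.04 in TG placebo libraries. Its difference was 0.05 as deposited (SE 0.0820, limma adjusted p = 0.822) and -0.007 at full length. The core protein Uqcrc1 had a difference of 0.07 and the Rieske iron-sulfur protein Uqcrfs1 one of 0.18, with overlapping groups. At full length these were 0.03 and 0.12. The small subunit Uqcr10, at 434 bases, had a difference of 0.19 as deposited and -0.16 at full length.

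Uqcr11, a small accessory subunit with a transcript of 445 bases, stood at 9.26, 9.54 and 9.35 in TG NM-101 libraries, against 8.81, 8.87 and 9.02 in TG placebo libraries. The groups were apart as deposited, by 0.48 (SE 0.105, limma adjusted p = 0.105). At full length it stood at 7.99, 8.35 and 7.92 in TG NM-101 libraries, against 8.01, 7.82 and 7.97 in TG placebo libraries. There the groups overlapped, and the difference was 0.16. Uqcrq, another small subunit, stood at 9.03, 9.23 and 9.09 in TG NM-101 libraries, against 8.65, 8.71 and 8.79 in TG placebo libraries. Its difference was 0.40 as deposited (limma adjusted p = 0.111) and 0.35 at full length (limma adjusted p = 0.249), and the groups did not overlap on either scale. The annotated Uqcrq transcript has 1521 bases. The WT counts and the TG values together imply about 589 bases, if its level is equal in WT and TG mice. With that length the full-length difference was 0.21, and the groups remained apart.

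Cycs, the cytochrome c that carries electrons between complexes III and IV, has a transcript of 3123 bases on which the offset has little effect. It stood at 6.12, 6.19 and 6.22 in TG NM-101 libraries, against 6.07, 5.70 and 5.88 in TG placebo libraries. Every TG NM-101 library lay above every TG placebo library, with replicate 1 of the placebo group close below. The difference was 0.29 as deposited (SE 0.108, limma adjusted p = 0.270) and 0.27 at full length (SE 0.113, limma adjusted p = 0.364).

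In complex IV the 11 subunits and isoforms that predominate in brain had a median difference of 0.30 as deposited, all positive, and 10 of them had groups that did not overlap, against 13.6% of all genes. At full length the median was 0.19, with 9 positive and 2 negative, and 3 had groups that did not overlap, against 9.91% of all genes. The transcripts of these 11 ran from 503 to 1076 bases, and short genes had larger shares. As deposited, TG NM-101 lay apart above TG placebo in 37.8% of all genes under 600 bases and in 26.1% from 600 to 1000 bases. At full length these shares were 18.3% and 12.7%. Cox4i1, at 745 bases, stood at 10.51, 10.76 and 10.68 in TG NM-101 libraries, against 10.29, 10.18 and 10.25 in TG placebo libraries. The difference was 0.41 (SE 0.0951, limma adjusted p = 0.117). At full length it stood at 9.89, 10.17 and 10.01 in TG NM-101 libraries, against 9.86, 9.65 and 9.72 in TG placebo libraries. The groups stayed apart, by 0.28 (SE 0.112, limma adjusted p = 0.353), and TG placebo replicate 1 came within 0.03 of TG NM-101 replicate 1.

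Cox6c, a small membrane subunit of complex IV, stood at 10.49, 10.69 and 10.73 in TG NM-101 libraries, against 10.07, 9.97 and 10.23 in TG placebo libraries. The groups did not overlap, and the difference was 0.54 as deposited (SE 0.105, limma adjusted p = 0.0881) and 0.29 at full length (SE 0.119, limma adjusted p = 0.357). Cox7c, also a small membrane subunit, stood at 9.38, 9.46 and 9.51 in TG NM-101 libraries, against 8.78, 8.94 and 9.20 in TG placebo libraries. Its difference was 0.48 as deposited (limma adjusted p = 0.134) and 0.25 at full length. Cox7a2l, which joins complexes III and IV into supercomplexes, had a difference of 0.38 as deposited and 0.30 at full length, where its groups overlapped. Cox5a, Cox6a1 and Cox8a had deposited differences of 0.15, 0.18 and 0.25, and full-length differences of -0.02, -0.02 and 0.03.

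**Figure D4:**
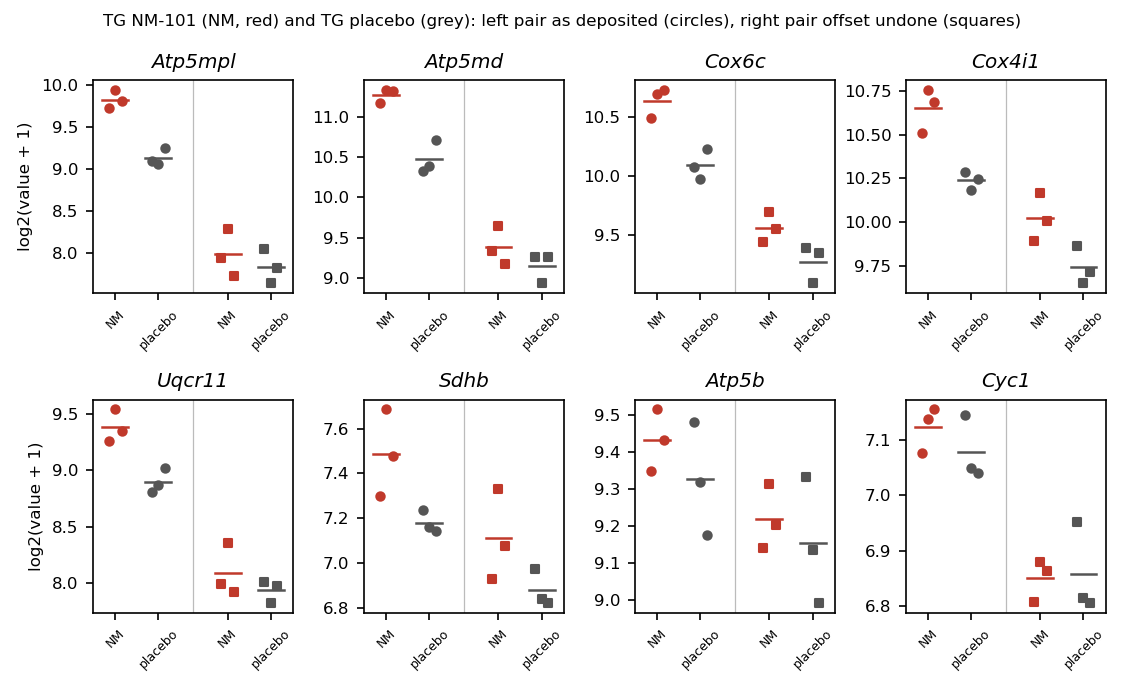
Values of 8 members in each TG NM-101 library (red) and each TG placebo library (grey), as log2(value + 1), with circles for the deposited scale, squares for the full-length scale and lines for group means. Atp5mpl, Atp5md and Uqcr11 have groups apart as deposited and overlapping at full length, Cox4i1 and Cox6c stay apart on both, and Atp5b and Cyc1 overlap on both.

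The isoforms that complex IV uses in other tissues contributed little RNA. Of the Cox6a pair, the heart and muscle isoform Cox6a2 made up 0.715% ± 0.0239 of the summed FPKM in TG NM-101 libraries and 0.821% ± 0.302 in TG placebo libraries (mean ± SD, n = 3 each). In WT libraries it made up 1.52% ± 0.423 of the pair's counts. Cox4i2, the lung isoform, made up 0.102% ± 0.0304 of the Cox4 pair in TG NM-101 libraries and 0.151% ± 0.0200 in TG placebo libraries. Cox7a1, the heart and muscle isoform of Cox7a2, made up 1.83% ± 0.608 of its pair in TG NM-101 libraries and 1.89% ± 1.06 in TG placebo libraries as deposited. With the offset undone it made up 1.02% ± 0.377 in TG NM-101 libraries and 1.25% ± 0.661 in TG placebo libraries, and in WT libraries 0.846% ± 0.117 of the pair's counts. The testis isoform Cox6b2 made up 1.01% ± 0.248 of the Cox6b pair in TG NM-101 libraries and 1.14% ± 0.850 in TG placebo libraries. Its 6 transcript rows divide the reads differently in each library, so its level is uncertain.

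None of these isoforms was called by limma, and their median difference was 0.04 as deposited and -0.09 at full length over the 5 tested. Cox8b, the heart and muscle isoform of Cox8a, stood at 1.52, 2.75 and 0.96 in TG NM-101 libraries, against 4.13, 0.58 and 1.39 in TG placebo libraries. Its highest value lay in TG placebo replicate 1 and its highest WT count, 40, in WT replicate 1, against 5 and 11 in the other WT libraries. These are the libraries with the most choroid plexus RNA in their groups. The next highest Cox8b value lay in TG NM-101 replicate 2, which had 1044 FPKM of the choroid plexus markers, and the part of these markers in the Cox8b values was not tested. Cox7b2 stood at 0.59, 0.85 and 0.80 in TG NM-101 libraries, against 0.33, 0.54 and 0 in TG placebo libraries, with 8, 6 and 3 WT counts. Cox8c was listed at 0 in all 9 samples. Of 12 striated muscle markers, 2 reached the level for testing. Acta1 stood at 1.83, 2.54 and 2.58 in TG NM-101 libraries, against 2.12, 2.79 and 2.55 in TG placebo libraries. Ckm, the muscle creatine kinase, stood at 0, 0 and 0.12 in TG NM-101 libraries, and at 0 in each TG placebo library.

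In complex V the 9 genes of the catalytic head and stalk had a median difference of 0.23 as deposited and 0.09 at full length. The head subunit Atp5b, the site of ATP formation, stood at 9.35, 9.52 and 9.43 in TG NM-101 libraries, against 9.48, 9.32 and 9.18 in TG placebo libraries. Its groups overlapped, and the difference was 0.11 as deposited (SE 0.103, limma adjusted p = 0.646) and 0.07 at full length. Atp5a1 stood at 8.54, 8.76 and 8.65 in TG NM-101 libraries, against 8.69, 8.53 and 8.42 in TG placebo libraries, with differences of 0.11 and 0.07. In both genes TG placebo replicate 1 stood above TG NM-101 replicate 1. Atp5d, a subunit of the central stalk, had a negative difference on both scales, at -0.08 as deposited and -0.18 at full length. Atp5c1, the shaft that turns inside the head, had differences of 0.28 and 0.21, and its groups did not overlap on either scale.

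The 8 genes of the membrane part had a median difference of 0.45 as deposited and 0.08 at full length. Atp5mpl, a small proteolipid of the membrane part, was the member called on the deposited scale. The gene lies on chromosome 12 from 111961374 to 111967009 (GRCm38.p6), and its transcript has 366 bases. It stood at 9.72, 9.95 and 9.81 in TG NM-101 libraries, against 9.10, 9.06 and 9.25 in TG placebo libraries. The groups did not overlap, and Atp5mpl rose by 0.69 on the deposited log2 scale (SE 0.0974, limma adjusted p = 0.0486), which is 1.61-fold. At full length it stood at 7.94, 8.29 and 7.73 in TG NM-101 libraries, against 8.05, 7.64 and 7.83 in TG placebo libraries. There the groups overlapped, and the difference was 0.15 (SE 0.159, limma adjusted p = 0.694). With the lower offsets of short transcripts it was 0.28 (SE 0.136, limma adjusted p = 0.410), and the groups again overlapped. On the deposited scale the call was lost with median-ratio scaling (limma adjusted p = 0.0864) and whenever a library other than TG placebo replicate 1 was left out, with limma adjusted p from 0.0785 to 0.453. Without TG placebo replicate 1 it was 0.00446.

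Atp5md, another small subunit that links ATP synthase dimers, has a transcript of 362 bases from chromosome 19. It stood at 11.17, 11.34 and 11.32 in TG NM-101 libraries, against 10.33, 10.39 and 10.72 in TG placebo libraries. The difference was the largest of the 47 members as deposited, at 0.80 (SE 0.119, limma adjusted p = 0.0572). At full length it was 0.24 (SE 0.145, limma adjusted p = 0.489), and TG NM-101 replicate 3 lay below TG placebo replicates 1 and 3. With the lower offsets it was 0.37 (SE 0.133, limma adjusted p = 0.308), and the groups were apart. Atp5k, of similar length, had a difference of 0.35 as deposited, -0.17 at full length and -0.05 with the lower offsets.

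Atp5j2, the f subunit at the base of the membrane part, had the largest full-length difference. It stood at 9.64, 9.84 and 9.76 in TG NM-101 libraries, against 9.21, 9.11 and 9.27 in TG placebo libraries as deposited, and the groups were apart by 0.56 (SE 0.0925, limma adjusted p = 0.0720). At full length the difference was 0.46 (SE 0.105, limma adjusted p = 0.227), with the groups still apart. Its annotated transcript has 955 bases, whereas the levels imply about 599 if they are equal in WT and TG mice. With that length it stood at 8.82, 9.06 and 8.85 in TG NM-101 libraries, against 8.66, 8.41 and 8.57 in TG placebo libraries. The difference then was 0.37, and all TG NM-101 libraries still lay above all TG placebo libraries. Among the WT libraries Atp5j2 varied the most of the members at 50 CPM or more, with 201, 292 and 284 CPM.

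The genes Atp5g1, Atp5g2 and Atp5g3 encode the same mature c subunit of the membrane ring. Atp5g3 made up 53.8% ± 0.175 of their summed FPKM in TG NM-101 libraries and 52.2% ± 0.358 in TG placebo libraries (mean ± SD, n = 3 each). Atp5g1 made up 19.9% ± 0.324 in TG NM-101 libraries and 22.04% ± 1.65 in TG placebo libraries, and Atp5g2 made up 26.3% ± 0.499 in TG NM-101 libraries and 25.8% ± 1.31 in TG placebo libraries. Shares of the summed WT counts, which are not per length, were 52.8% ± 1.74 for Atp5g3, 25.5% ± 0.748 for Atp5g1 and 21.7% ± 1.11 for Atp5g2. Atp5g1 had a difference of -0.04 as deposited, and Atp5g2 and Atp5g3 had 0.13 and 0.15. At full length these were -0.14, -0.004 and 0.01, and the groups overlapped for each gene on both scales. An Atp5g1 transcript has an annotated length of 4715 bases, whereas the levels imply about 913 if they are equal in WT and TG mice. With that length the full-length difference of Atp5g1 was -0.19, and the groups again overlapped.

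Other gene lists of the same pathway held no call by limma on either scale. Complex I, with Ndufa4 on its list, had 35 of 37 genes with a positive difference and 2 with a negative one. The median was 0.23 as deposited and 0.10 at full length. The complex I subunit Ndufb4 had the smallest p of that list, with a difference of 0.62 (SE 0.116, limma adjusted p = 0.0855) as deposited. At full length it was 0.52 (limma adjusted p = 0.209). For 41 assembly factors of complexes II to V the median was 0.10 as deposited, and 0.03 at full length over the 39 of them tested there. For 17 enzymes of the tricarboxylic acid cycle it was 0.09 and 0.04, and for the 14 regulators of respiratory genes 0.07 as deposited, with 0.03 over the 13 tested at full length. Of the regulators, 8 had a positive difference and 6 a negative one as deposited. Tfam, which packs mitochondrial DNA and starts its transcription, had a difference of 0.28 (SE 0.114, limma adjusted p = 0.303) and 0.26 at full length. Pprc1, a coactivator related to PGC-1, had one of -0.35 (SE 0.148, limma adjusted p = 0.321), with -0.35 at full length. Atpif1, the inhibitor of ATP synthase, had a difference of 0.01 as deposited and -0.21 at full length.

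Markers of cell types moved beside these values in the same libraries. The 13 neuron markers had a median difference of 0.01 as deposited, with 7 positive and 6 negative, and their summed FPKM ran from 3115 to 3545 in TG NM-101 libraries and from 3313 to 3584 in TG placebo libraries. The 12 markers of myelinating oligodendrocytes had a median of 0.15, with 10 positive, and sums from 2067 to 3764 FPKM in TG NM-101 libraries and from 1574 to 4942 FPKM in TG placebo libraries. The 8 markers of parvalbumin interneurons had a median of 0.21, with 6 positive, and sums from 115.9 to 131.3 FPKM in TG NM-101 libraries and from 103.7 to 108.4 FPKM in TG placebo libraries. All 9 astrocyte markers had a positive difference, with a median of 0.39, and sums from 1806 to 1899 FPKM in TG NM-101 libraries and from 1268 to 1458 FPKM in TG placebo libraries. The astrocyte marker Sox9 rose by 0.77 on the deposited scale (SE 0.0983, limma adjusted p = 0.0425), and its full-length difference was 0.75 (limma adjusted p = 0.0786). As deposited, 0 genes were called higher with no filter on low values or on genes above 0 in all 6 samples. Leaving out each TG NM-101 library in turn also gave 0. The Sox9 call was therefore lost in these settings. The 9 microglia markers had a median of 0.35 and sums from 366 to 374 FPKM in TG NM-101 libraries and from 282 to 308 FPKM in TG placebo libraries. All 8 endothelial markers had a negative difference, with a median of -0.30. Nuclear-retained RNAs had a median of -0.87, and Malat1 stood at 7.59, 7.65 and 7.09 in TG NM-101 libraries, against 6.11, 9.00 and 9.48 in TG placebo libraries. At full length the medians of the oligodendrocyte, interneuron, astrocyte, microglia and endothelial lists were 0.12, 0.20, 0.37, 0.29 and -0.30. The part of these markers in the respiratory gene values was not tested.

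Between the TG groups and WT mice no test was made, because the counts of the WT columns and the TG values were normalized separately. For description, WT counts were divided by depth and annotated transcript length and written as log2(RPKM + 1), that is, reads scaled by length and depth. The deposited TG values use the length less the offset, so only with the offset undone do both sides use the same length. At 450 bases the offsets alone add 1.27 to TG NM-101 and 0.95 to TG placebo values. With the TG values as deposited, the median member lay 0.41 above WT in TG NM-101 libraries and 0.12 above WT in TG placebo libraries. With the offset undone, it lay 0.26 below WT in TG NM-101 libraries (-0.26) and 0.41 below WT in TG placebo libraries (-0.41). The direction of this description therefore turned with the handling of length, and the medians of all genes were 0.05 and -0.10 for TG NM-101 and 0.05 and -0.08 for TG placebo. All genes under 600 bases turned in the same manner, from 0.65 to -0.36 for TG NM-101 and from 0.32 to -0.51 for TG placebo. Long members depended less on the choice. Atp5b differed from WT by -0.02 in TG NM-101 libraries and by -0.13 in TG placebo libraries as deposited, and by -0.24 in TG NM-101 libraries and by -0.30 in TG placebo libraries with the offset undone. Values of Uqcrq, Sdhc, Atp5j2 and Atp5g1 against WT are not given singly, though they enter the medians. Their annotated lengths exceed those that the levels imply. An implied length takes the gene's level as equal in WT and TG mice, which was not tested. Without these 4 genes, the median of all members was 0.37 above WT in TG NM-101 libraries and 0.10 above WT in TG placebo libraries as deposited, and -0.35 in TG NM-101 libraries and -0.44 in TG placebo libraries with the offset undone. The 4 genes were picked by these same levels and in a single direction. Leaving them out therefore favours lower medians and is no independent check. In complex II, the median for TG NM-101 as deposited was 0.06 with Sdhc and -0.08 without it.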

How the data were processed

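Per the labels' protocols, total RNA from mouse brain was isolated with an RNeasy FFPE kit and made into QuantSeq libraries, and per the submitters' processing notes Bowtie2 and the build mm10 were used. No program for counting or normalizing is named there. The authors' deposit is 1 table of 33299 transcripts. Its 3 WT columns hold whole-number counts, and its 6 TG columns hold deposited log2 values, read here from their behaviour as log2(FPKM + 1). The design assumed plain-length FPKM. The low values showed instead that the deposited FPKM used the length less an offset per library, found on a grid of 10 bases.

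A RefSeq table (GRCm38.p6) named 32394 transcripts, and 905 kept their identifiers. Linear values were summed per gene and written as log2(value + 1), which understates changes of low genes. Genes with a mean of at least 1 were fitted with limma 3.58.1 (R 4.3.3, variance trend, robust shrinkage), with Benjamini-Hochberg adjustment at 0.05, two-sided. Only the 6 TG libraries entered the fit. The full-length scale multiplies each value by (length - offset) / length with GENCODE M21 lengths, for genes whose transcripts all exceed 300 bases, and was chosen after seeing the data, as was the use of lower offsets under 600 bases. Where a member's annotated length less the mean offset of 240 bases was at least 1.5 times the length implied by WT CPM over TG FPKM, the implied length was also tried. The implied length takes a gene's level as equal in WT and TG mice. The procedures were tested on simulated data.

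The members and gene lists were chosen with earlier results of these data known. The named genes are members past the threshold, the largest 2 and smallest 1 absolute differences per complex, a list of core subunits, the isoform families, and the 2 smallest p-values per other list. Uqcr10, Cox7a2l, Atp5c1, Atp5d, Atp5j2, Atp5k and Atp5l were named after their values were seen. Reads of members such as Atp5k, Atp5l and Cox7c may be shared with near-identical pseudogenes, which was not examined for any member. Replicate numbers did not pair the libraries. No reads of mitochondrial genes were used here.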

Additional observations from a re-analysis of the deposited data

How the results depend on the processing

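The count of members called by limma on the deposited scale was 1, with 17 among all genes. With a pseudocount of 0.1 these were again 1 and 17. No members were called (0) with no filter on low values, with median-ratio scaling, without the variance trend and robust shrinkage, on genes above 0 in all 6 samples, with the replicate block or with the length offset undone. Among all genes those settings gave 4, 4, 4, 0, 3 and 2 calls, and the 0 stood beside 1894 genes at an unadjusted p under 0.05. Leaving out each library gave 0 to 17 members and 2 to 2263 genes as deposited, and 0 to 4 members and 1 to 2035 genes at full length. The upper ends came without TG placebo replicate 1, and the cause was not tested. Replicate numbers are shared between groups, but libraries with the same number did not deviate together (correlations of 0.04, -0.03 and -0.02), so the block gives no pairing.

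Leave-one-out medians of TG NM-101 minus TG placebo ran from 0.072 to 0.22 (complex II), 0.15 to 0.26 (III), 0.21 to 0.33 (IV), 0.19 to 0.32 (V) and 0.20 to 0.30 (all members) as deposited. At full length they ran from 0.036 to 0.19, 0.026 to 0.15, 0.014 to 0.18, 0.017 to 0.16 and 0.027 to 0.17. Undoing the offset moved the medians of complexes III, IV and V and of all members to 0.083, 0.15, 0.088 and 0.088. Against WT it moved them to -0.19 (II), -0.37 (III), -0.40 (IV), -0.24 (V) and -0.26 (all) for TG NM-101, and to -0.35, -0.41, -0.52, -0.31 and -0.41 for TG placebo. Leaving out also the 4 members with annotated lengths above the implied ones gave -0.22, -0.38, -0.40, -0.24 and -0.35 for TG NM-101. For TG placebo it gave -0.40, -0.47, -0.52, -0.36 and -0.44. As deposited, leaving out these 4 turned complex II to -0.080 for TG NM-101. The medians against WT that follow use the deposited TG values, whose lengths are less the offset. Leaving out each library gave medians against WT of 0.00093 to 0.13 (II), 0.34 to 0.48 (III), 0.29 to 0.45 (IV), 0.54 to 0.64 (V) and 0.34 to 0.44 (all) for TG NM-101. For TG placebo it gave -0.18 to -0.10, 0.12 to 0.18, 0.032 to 0.19, 0.16 to 0.30 and 0.11 to 0.19. Median-ratio scaling moved complex III to 0.34 for TG NM-101 against WT, and members with a single transcript gave 0.69 for TG NM-101 and 0.31 for TG placebo in complex V.

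Some named genes changed sign, and none of them was called under those settings. With the offset undone these were Atp5g2 (-0.0042), Cox5a (-0.018), Cox6a1 (-0.023), Cox6a2 (-0.094), Cox7a1 (-0.049), Cyc1 (-0.0071), Atp5k (-0.17), Uqcr10 (-0.16) and Atpif1 (-0.21). With the lower offsets under 600 bases Atp5k, Uqcr10 and Atpif1 stood at -0.045, -0.086 and -0.17, Cox6a1 and Cox7a1 were positive, and the others as listed. Atpif1 stood at -0.022 with median-ratio scaling. Without 1 library they were Atp5g1 (-0.11 to 0.073, and 0.00033 without TG NM-101 replicate 1), Cox4i2 (-0.26 to 0.056), Cox6a2 (-0.24 to 0.25), Cox6b2 (-0.066 to 0.78), Atpif1 (-0.073 to 0.11) and Cox8b (-1.02 to 0.76, and 0.10 without TG NM-101 replicate 3). With 3 libraries per group, small differences could not be resolved, and depth limits Cox4i2, Cox6b2, Cox7a1, Cox7b2, Cox8b and Cox8c, each under 5 CPM in WT libraries.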
